A study of Mus musculus with 18 samples.

Results

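The complement components and receptors measured in mouse macrophages were followed through 9 genes: C1qa, C1qb, C1qc, C2, C3, Cfb, Cfp, C3ar1 and C5ar1. They were taken by symbol from a table of 43309 genes, all 9 were found, and all of them passed the filter on low values that 21336 genes passed.

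Complement is a cascade of plasma and locally made proteins that marks microbes and debris for uptake. C1q, built from the chains of C1qa, C1qb and C1qc, starts the classical pathway on antibody or dying cells. C2 and factor B (Cfb) are the serine protease subunits of the classical and the alternative C3 convertases, C3 is the protein both enzymes cleave, and properdin (Cfp) stabilises the alternative convertase. C3ar1 and C5ar1 encode the receptors for the fragments C3a and C5a. Most circulating complement comes from the liver, whereas macrophages are a main source of C1q and properdin in tissues.

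Bone marrow cells of C57BL/6 mice were grown into macrophages for 7 days with M-CSF at 10 ng/ml and 10% serum. An 18 h stimulation followed, with LPS at 100 ng/ml plus interferon gamma at 20 ng/ml for the M1 state or IL-4 at 20 ng/ml for the M2 state. Cells were wild-type (WT), knockout for progranulin (PGRN, encoded by Grn), or from a myeloid knockout of 14-3-3e, the protein encoded by Ywhae, which gave 6 groups of 3 libraries. The labels give neither the Cre driver of the myeloid knockout, nor the age and sex of the mice, nor whether libraries of a group came from separate mice, so p-values measure the spread between these libraries, which may be technical. No unstimulated cells are among the 18 libraries.

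Values are normalized counts, that is, reads divided by a size factor per library. The libraries held 5157638 to 105315616 reads, and 1 read was worth 0.202 to 4.46 normalized counts. Grn lay between 81989 and 91739 in WT M1 but between 212 and 497 without PGRN, and the M2 libraries fell from 29365 to 34556 (WT) to 23.9 to 32.2 (knockout). Ywhae fell from 9021 to 9859 in WT M1 to 5191 to 6214 in 14-3-3e knockout M1, and from 8203 to 9015 in WT M2 to 4362 to 5131 in the knockout, so more of its transcript remained than of Grn. All 4 M1 state genes (Nos2, Il12b, Il6, Cxcl9) were higher and all 4 M2 state genes (Arg1, Retnla, Chil3, Mrc1) lower in M1 than in M2 in every genotype. Against WT M1, 1 of the 4 M1 state genes was higher in PGRN knockout M1 and 1 in 14-3-3e knockout M1. The M2 state genes also moved with genotype: against WT of the same state, Arg1 and Retnla were lower in PGRN knockout M2, these and Chil3 in PGRN knockout M1, Arg1 and Retnla in 14-3-3e knockout M1 and none in 14-3-3e knockout M2. Their sum was 97173 to 104802 in PGRN knockout M2 and 140064 to 157344 in WT M2, and its part in the differences of that comparison was not tested. Differences below are log2 fold changes ± SE from limma, with Benjamini-Hochberg adjusted p over all genes tested, called at adjusted p under 0.05 with n = 3 libraries a group.

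Markers of other cells moved with the genotypes. The 6 macrophage markers (Adgre1, Csf1r, Cd68, Itgam, Mertk, Lyz2) summed to 233813 to 409623 in WT M1, 416330 to 510128 in PGRN knockout M1 and 161722 to 239811 in 14-3-3e knockout M1. In M2 the same sum was 128138 to 157442 in WT, 278553 to 326361 in PGRN knockout and 67724 to 84926 in 14-3-3e knockout cells. Against WT, 3 of the 6 were higher in PGRN knockout M1 and 4 in M2, while in 14-3-3e knockout M1 Adgre1 was higher and Cd68 and Lyz2 were lower, and in M2 Lyz2 alone was lower. The 10 stromal markers, collagens and other matrix genes among them, summed to 327670 to 558959, 290316 to 321041 and 582843 to 730265 in the 3 M1 groups in that order, and to 378907 to 492681, 237835 to 287146 and 482359 to 622136 in the M2 groups. Against WT, 3 stromal markers were lower in PGRN knockout M1, 5 lower and 1 higher in PGRN knockout M2, 5 higher in 14-3-3e knockout M1 and 2 higher in 14-3-3e knockout M2. Their part in the differences below was not tested, and in such bulk samples fewer cells of a type and less RNA per cell cannot be told apart. Lists of neutrophil, dendritic, B and T cell markers summed to at most 6800.3, 208, 3923 and 58.0 in any library. Against WT, 1 neutrophil, 1 B cell and 2 T cell markers were lower in PGRN knockout M1, 1 neutrophil and 3 dendritic markers were higher in 14-3-3e knockout M1 and 1 dendritic marker in 14-3-3e knockout M2. The B cell sum was 1774 to 3768 in WT M1 and 412 to 1432 in PGRN knockout M1. Ly6g, which marks neutrophils, was at 0 in WT M1 and PGRN knockout M1, and Siglech, a plasmacytoid dendritic cell gene, at 0 in WT M1. Reads like ribosomal RNA made up 12.2% of the third WT M2 library and 1.59% in WT M1 replicate 2, where no other library exceeded 0.0987%.

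**Figure D1:**
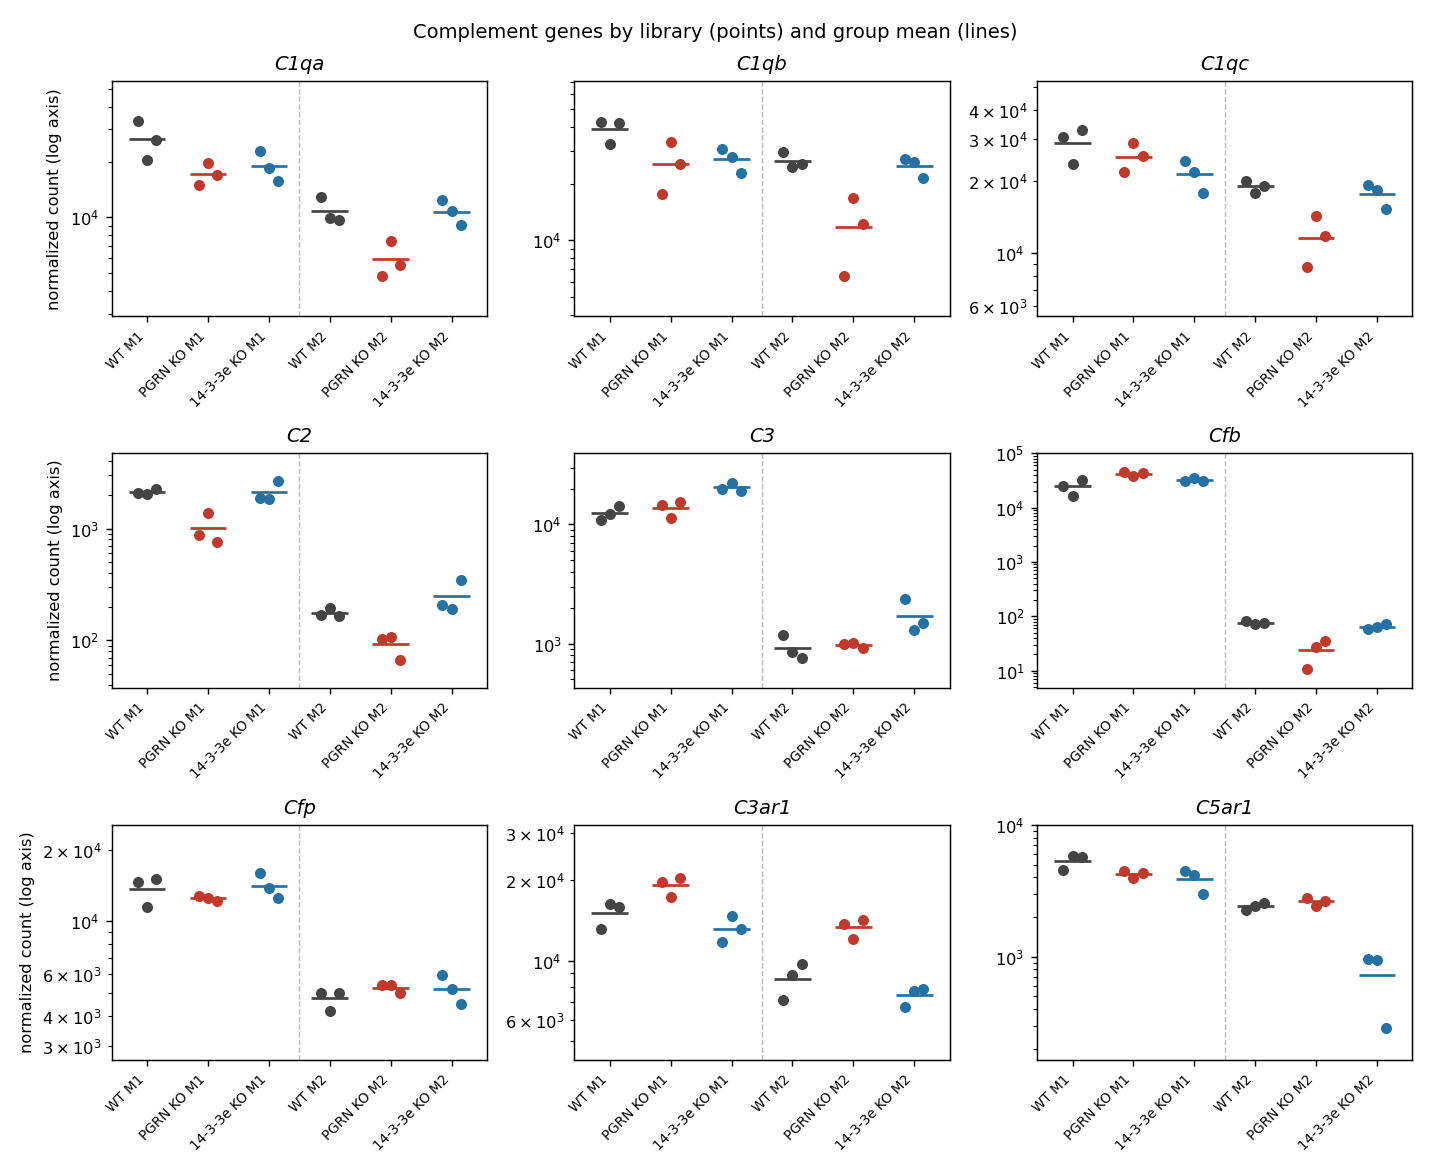
Normalized counts on log axes of the 9 complement genes in the 18 libraries, with points for libraries and lines for group means, M1 groups left of the dashed line and M2 groups right of it. Every M1 library exceeded every M2 library for C1qa, C2, C3, Cfb, Cfp and C5ar1. The share of all genes with states so separated is not given here. C5ar1 was lowest in 14-3-3e knockout M2, at 287 to 964.

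Between the M1 and M2 states, 8 of the 9 genes were higher in WT M1 and none was lower. Of all genes tested, 38.9% were called in this comparison, 18.9% as higher and 20.0% as lower. The median difference of the 9 genes was 1.28 against -0.04 over all genes. In PGRN knockout cells 8 of 9 were higher in M1 (37.5% of all genes called, 18.0% higher and 19.5% lower), and in 14-3-3e knockout cells 7 of 9 (30.0% called, 15.6% higher and 14.4% lower). Scaling by library totals instead of the deposited size factors lowered the median gene by 0.17 to 0.22 in these 3 comparisons. The share of calls that were higher then went from 48.5% to 34.2% in WT, from 48.1% to 30.0% in PGRN knockout and from 52.0% to 29.8% in 14-3-3e knockout cells, while no called difference of a complement gene changed direction. The C1qb difference in 14-3-3e knockout cells, which was not called, went from 0.12 to -0.10 under that scaling.

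The alternative pathway protease gene Cfb had the widest range of the 9. Its level was 24838, 16443 and 32895 in the WT M1 libraries and 82.5, 71.4 and 75.2 in WT M2. The groups lay far apart, with a difference of 8.27 ± 0.31 (limma adjusted p = 2e-11), or 308-fold. PGRN knockout cells had 44809, 37698 and 42465 in M1 and 10.9, 27.0 and 35.3 in M2, a difference of 10.82 ± 0.31. Cells of the 14-3-3e knockout had 30374, 35014 and 30752 in M1 and 59.5, 63.3 and 71.2 in M2. Per kilobase of exon, the group means of Cfb ran from 8.62 in PGRN knockout M2, the lowest of any of the 9 genes, to 14746 in PGRN knockout M1.

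C3 and C2 followed with smaller rises. C3 stood at 10894, 12274 and 14419 in WT M1 and at 1169, 849.7 and 750.3 in WT M2, a difference of 3.78 ± 0.20. C2 stood at 2091, 2054 and 2274 in WT M1 and at 170.3, 195 and 164 in WT M2, a difference of 3.59 ± 0.25. Neither gene's groups overlapped, and the differences in the knockouts were similar in size, 3.83 and 3.62 for C3 and 3.40 and 3.12 for C2 in PGRN and 14-3-3e knockout cells. Properdin (Cfp) was at 14613, 11538 and 15081 in WT M1 and at 5017, 4187 and 5014 in WT M2, and rose by 1.53 ± 0.12.

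The receptor genes were also higher in WT M1. C3ar1 was at 13155, 16334 and 15882 in WT M1 and at 7105, 8829 and 9694 in WT M2, a difference of 0.83 ± 0.12. C5ar1 was at 4562, 5765 and 5751 in WT M1 and at 2276, 2417 and 2556 in WT M2, a difference of 1.14 ± 0.34 (limma adjusted p = 0.015). Without the 2 libraries with over 1% of such ribosomal reads the C5ar1 difference was 1.13 and did not pass (adjusted p = 0.065). In PGRN knockout cells C5ar1 was the gene not called between the states, at 0.69 ± 0.34 (limma adjusted p = 0.13). Its M1 libraries there all lay above its M2 libraries. Fitting only the PGRN knockout groups made C5ar1 pass (0.69 ± 0.07, limma adjusted p = 4.4e-05). In 14-3-3e knockout cells C5ar1 differed by 2.57 ± 0.34. C3ar1 was higher in M1 in both knockouts, by 0.52 and 0.83.

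The C1q chains differed less between the states in value than the convertase genes. C1qa was at 33288, 20442 and 26147 in WT M1 and at 12943, 9894 and 9607 in WT M2, a difference of 1.28 ± 0.20. C1qc was at 30728, 23749 and 32886 against 20165, 17892 and 19135, a difference of 0.60 ± 0.17, and C1qb at 42879.6, 32764 and 42328 against 29706, 24608 and 25393, a difference of 0.56 ± 0.28 that did not pass (limma adjusted p = 0.14). All 3 chains had WT M1 libraries above every WT M2 library. In 14-3-3e knockout cells C1qb differed by 0.12 ± 0.28 and C1qc by 0.27 ± 0.17, neither passing, and in PGRN knockout cells by 1.17 and 1.15, both passing. Scaling by library totals took the WT difference of C1qc to 0.42 (adjusted p = 0.070). Fitting only the 2 WT groups made C1qb pass (adjusted p = 0.025), and fitting only the PGRN knockout groups ended its call there (adjusted p = 0.093). Same-numbered M1 and M2 libraries of the 14-3-3e knockout deviated together. Blocking on that number in those libraries alone made C1qc pass as well (0.27 ± 0.05, limma adjusted p = 0.0027), so 8 genes were called in place of 7. Calls over all genes also rose, to 9042 of 18949 tested in that fit from 6407 of 21336 in the full fit without a block.

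In PGRN knockout M2, C1qa, C1qb, C1qc, C2 and Cfb were lower than in WT M2 and C3ar1 was higher, 5 and 1 of the 9 genes. In PGRN knockout M1, C1qa and C2 were lower and C3ar1 was higher, 2 and 1 of 9. Of all genes tested, 19.4% were called in M2 (11.1% higher, 8.30% lower) and 25.3% in M1 (14.2% higher, 11.1% lower). Over the 9 genes the median difference came to -0.74 in M2 and -0.19 in M1, beside 0.00 and 0.01 for all genes. Scaling by totals moved the share of calls that were higher from 57.2% to 47.2% in M2 and from 56.3% to 39.4% in M1. The PGRN and 14-3-3e knockout comparisons of a state share its WT libraries.

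The 3 C1q chains were at 4785, 7394 and 5516 (C1qa), 6480.3, 16787 and 12145 (C1qb), and 8715, 14301 and 11779 (C1qc) in PGRN knockout M2. Each of these libraries lay below every WT M2 library of the same gene. The differences from WT were -0.89 ± 0.20 for C1qa, -1.27 ± 0.28 for C1qb and -0.74 ± 0.17 for C1qc, with limma adjusted p of 0.0051, 0.0056 and 0.0054. Fitting only these 2 groups left C1qb at adjusted p = 0.058. In M1 the PGRN knockout libraries were at 14978, 19659 and 17019 for C1qa, 17556, 33482 and 25623 for C1qb, and 21914, 28893 and 25457 for C1qc. Only C1qa lay wholly below WT M1 there and passed (-0.61 ± 0.20, limma adjusted p = 0.035). Its call was lost without WT M1 replicate 1 (-0.43, adjusted p = 0.17) or 3 (-0.61, 0.069), without PGRN knockout M1 replicate 1 (-0.51, 0.13) or 3 (-0.61, 0.084), and with only these groups fitted (-0.61, 0.067). C1qb passed there without PGRN knockout M1 replicate 2 (-0.88, adjusted p = 0.047). The differences of the PGRN knockout effect between the states were 0.28 ± 0.28, 0.61 ± 0.40 and 0.55 ± 0.24 for C1qa, C1qb and C1qc, and none passed.

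The chains did not keep 1 proportion. Ratios inside a library do not depend on its scaling, and C1qb per C1qc was 1.40, 1.38 and 1.29 in WT M1 and 1.47, 1.38 and 1.33 in WT M2. The PGRN knockout M1 libraries had ratios of 0.801, 1.16 and 1.01 and the M2 libraries 0.744, 1.17 and 1.03, so all 6 of these libraries lay below the 12 others, the lowest of which was at 1.25. The library numbered 1 was lowest and the one numbered 2 highest for all 3 chains in PGRN knockout M1 and M2. Their C1qb per C1qc ratios kept the same order by number in both states. Same-numbered libraries may thus be related, and the 6 may not count as 6 independent ones. C1qa per C1qc was 0.795 to 1.08 in WT M1, 0.669 to 0.684 in PGRN knockout M1 and 0.840 to 0.934 in 14-3-3e knockout M1. In M2 it was lower in each genotype, at 0.502 to 0.642, 0.468 to 0.549 and 0.589 to 0.636, and WT and PGRN knockout overlapped. These ratios were given no test.

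**Figure D2:**
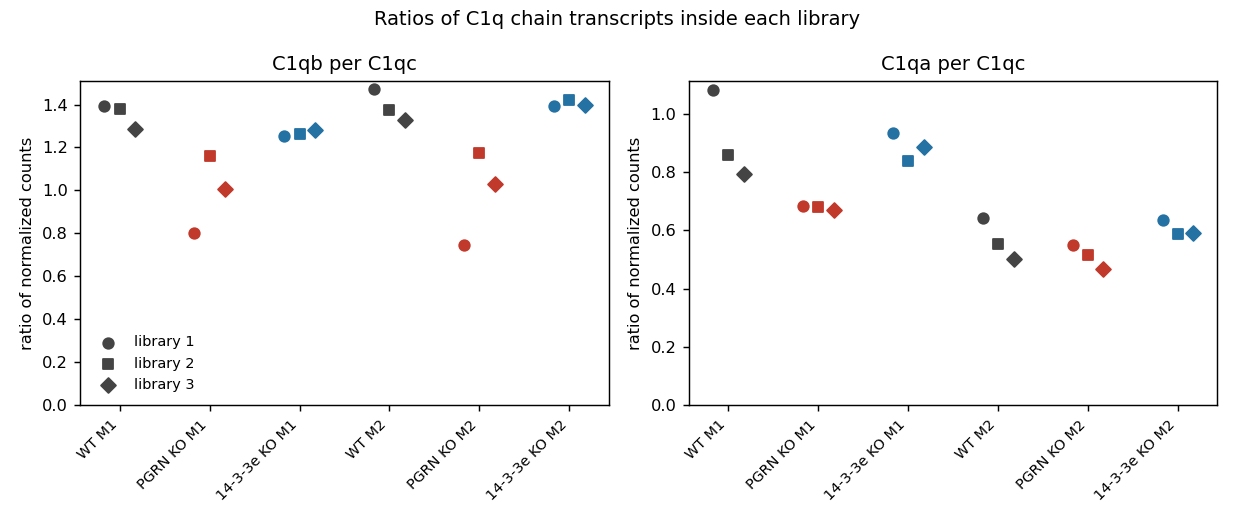
Ratios of normalized counts inside each library, C1qb per C1qc on the left and C1qa per C1qc on the right, with 1 symbol per library number and linear axes from 0. C1qb per C1qc was at most 1.17 in the 6 PGRN knockout libraries and at least 1.25 in the other 12.

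The C1q genes lie side by side on the minus strand of chromosome 4 (GENCODE M21, GRCm38), C1qb at 136880129 to 136886187, C1qc at 136889804 to 136893065 and C1qa at 136895917 to 136898803. RefSeq promoters on GRCm38.p6 were given for 6 of the 9 genes (C1qb, C1qc, C3, C3ar1, C5ar1, Cfp) and searched on both strands for 8 motifs in the 300 bases from 250 before the start. The motifs were GAS (TTCNNNGAA), STAT6-type (TTC and GAA 4 bases apart), ISRE core (GAAA and GAAA 2 bases apart), kappaB-type (GGG and TTCC 3 bases apart), PU.1 core (GAGGAA), CEBP (TTGCNNAA), AP-1 (TGANTCA) and MARE-type (TGCTGAC). GAS and STAT6-type differ only in their spacing, and kappaB-type and the reverse of the PU.1 core share TTCC. The upstream 250 bases of C1qb and C1qc are printed because these neighbours fell together in PGRN knockout M2. They are read from the minus strand of chr4:136886201-136886450 and chr4:136892915-136893164, with the PU.1 core in capitals.
C1qb promoter: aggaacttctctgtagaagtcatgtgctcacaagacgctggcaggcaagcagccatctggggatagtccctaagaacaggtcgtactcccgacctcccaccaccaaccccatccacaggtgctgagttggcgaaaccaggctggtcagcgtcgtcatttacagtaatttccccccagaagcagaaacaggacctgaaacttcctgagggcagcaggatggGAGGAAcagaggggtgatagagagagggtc
C1qc promoter: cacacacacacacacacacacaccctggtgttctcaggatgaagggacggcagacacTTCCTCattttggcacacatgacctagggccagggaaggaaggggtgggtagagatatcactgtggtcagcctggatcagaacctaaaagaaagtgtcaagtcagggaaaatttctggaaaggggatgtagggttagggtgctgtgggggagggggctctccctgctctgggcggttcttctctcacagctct
The PU.1 core, the binding word of a macrophage lineage factor, stood 30 to 25 bases before the start of C1qb and, on the other strand, 193 to 188 bases before that of C1qc. It is found in 28.3% of the 32851 promoters of the table, and a match is a description of letters. The RefSeq start used for C1qb lies 13 bases upstream of the gene as GENCODE annotates it. That of C1qc lies 151 bases inside the annotated gene, so most of its printed bases fall within that gene.

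C2 fell in PGRN knockout cells in both states. It was at 869.5, 1387 and 755 in PGRN knockout M1 and at 104, 107 and 67.4 in M2, each below all WT libraries of the state. The differences were -1.14 ± 0.25 in M1 and -0.95 ± 0.25 in M2 (limma adjusted p = 0.0032 and 0.013). The M2 call was lost without PGRN knockout M2 replicate 3 (-0.74, adjusted p = 0.074) and with precision weights on the recovered reads (-0.86, 0.063). C2 spans 34862604 to 34898265 on chromosome 17, minus strand, and shares exons with Zbtb12 on the other strand and with Gm20547 on its own.

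C3ar1 was higher without progranulin. It stood at 13689.8, 12113 and 14255 in PGRN knockout M2 and at 19794, 17388 and 20408 in PGRN knockout M1, above every WT library of the same state. The difference came to 0.65 ± 0.12 in M2 (limma adjusted p = 0.0012) and 0.35 ± 0.12 in M1 (0.047). The M1 call was lost under several settings, among them scaling by library totals (0.25, adjusted p = 0.14), only the groups compared (0.35, 0.097) and leaving out WT M1 replicate 1 (0.25, 0.17) or 3 (0.39, 0.054) or PGRN knockout M1 replicate 1 (0.32, 0.13) or 3 (0.30, 0.15). C3, Cfp and C5ar1 did not pass in either state, with differences of 0.14 and 0.09, -0.12 and 0.16, and -0.33 and 0.12 in M1 and M2. Their SE were 0.20, 0.12 and 0.34.

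Cfb differed by state. In PGRN knockout M2 it was below every WT M2 library, by -1.75 ± 0.31 (limma adjusted p = 0.0013), while in M1 all 3 knockout libraries lay above all 3 of WT, by 0.81 ± 0.31, which did not pass (0.075). The difference between the 2 effects was 2.56 ± 0.44 (limma adjusted p = 0.014), and Cfb was the 1 of the 9 genes whose PGRN knockout effect differed between the states, where 1.25% of all genes were called in either direction. Fitting only these 4 groups gave the same 2.56 with adjusted p = 0.071.

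Cfb shares exons with a second gene. Gm20547, at 34856412 to 34882042 on the minus strand of chromosome 17, is annotated as protein coding and shares exons with Cfb (34856374 to 34862518) and C2. Its level was 535, 12122 and 0 in the WT M1 libraries. The PGRN knockout M1 libraries held 299, 62.3 and 426 of it, those of 14-3-3e knockout M1 2332, 364 and 1909. The WT M1 library with the lowest Cfb, replicate 2, had the highest Gm20547, which was 42.4% of the sum of both genes there. Cfb and Gm20547 together were 25373, 28566 and 32895 in WT M1, with an SD of 3775 against 8226 for Cfb alone. In M2, where both genes were low, Gm20547 made up 0%, 10.6% and 39.2% of that sum in the WT libraries. Its shares were 66.0%, 48.1% and 0% with PGRN knocked out, and 56.0%, 0% and 40.8% for the 14-3-3e knockout. The M2 sums were 82.5, 79.8 and 124 in WT and 31.9, 51.9 and 35.3 in PGRN knockout cells, which did not overlap. How the quantification divided reads among these genes is not recorded, so the levels of Cfb and C2 are uncertain to that extent.

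With Gm20547 added to Cfb, the PGRN knockout difference in M1 was 0.54 ± 0.25 (limma adjusted p = 0.13), that in M2 -1.25 ± 0.25 (0.0022), and the difference of the effects 1.78 ± 0.35 (0.022). Precision weights, without that sum, made the M1 difference pass (0.81 ± 0.17, adjusted p = 0.0038), as did leaving out WT M1 replicate 3 (1.04, 0.033). Added to C2 instead, the reads left the PGRN knockout difference of C2 at -1.80 in M1 (adjusted p = 0.033) and at -0.90 in M2 (0.31), which no longer passed. Between the states, the sums took the Cfb difference in PGRN knockout cells from 10.82 to 10.04 ± 0.25 and the C2 difference in WT from 3.59 to 4.49 ± 0.57, with both still called.

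**Figure D3:**
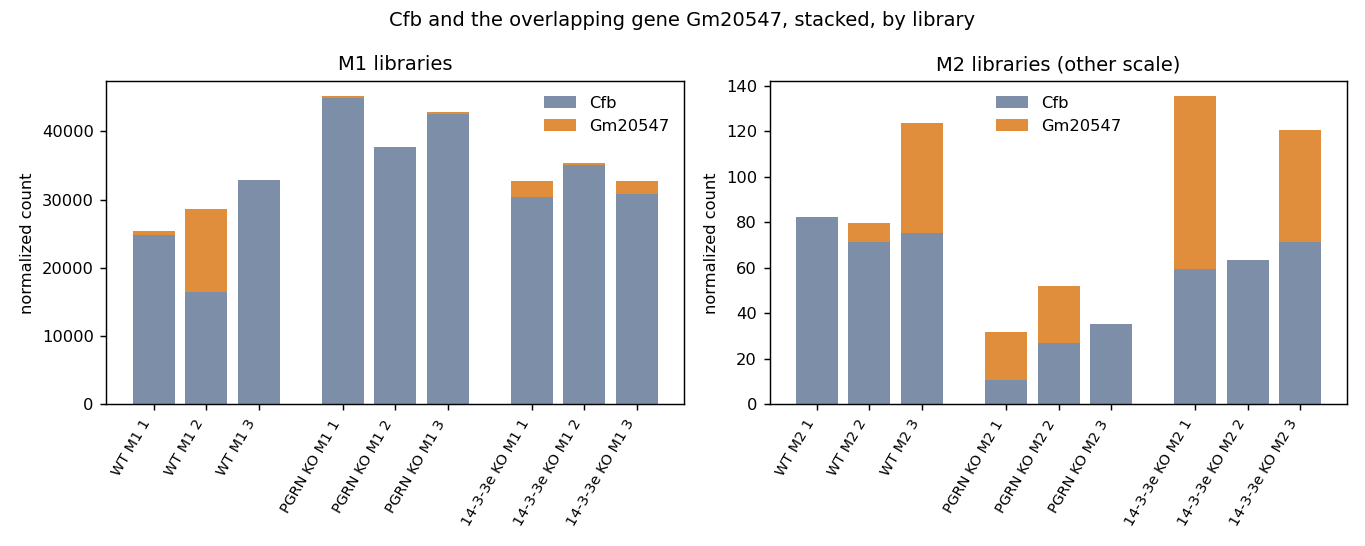
Stacked normalized counts of Cfb and the overlapping gene Gm20547 in each library, with M1 libraries on the left and M2 libraries on the right on separate linear axes. WT M1 replicate 2 holds 12122 of Gm20547 beside 16443 of Cfb.

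In the myeloid 14-3-3e knockout, 1 of the 9 genes was called in M1, C3, where 21.3% of all genes were called. In M2, C3 was higher and C5ar1 lower, 1 and 1 of 9, where 6.69% of all genes were called (3.32% higher, 3.37% lower). Over the 9 genes the median came to -0.20 in M1 and -0.10 in M2, beside 0.07 and 0.00 for all genes. Scaling by totals raised the median gene by 0.08 and 0.13 and took the share of calls that were higher from 56.2% to 70.9% in M1 and from 49.7% to 79.2% in M2.

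C3 was the gene that rose in both states. It was at 19652, 22453 and 19258 in 14-3-3e knockout M1 and at 2363, 1311 and 1481 in M2, above every WT library of the state. The differences were 0.71 ± 0.20 in M1 (limma adjusted p = 0.019) and 0.87 ± 0.20 in M2 (0.016). The M1 call was lost without WT M1 replicate 1 (0.62, adjusted p = 0.090) or 14-3-3e knockout M1 replicate 2 (0.64, 0.077). The M2 call was lost without WT M2 replicate 3 (0.74, adjusted p = 0.080) or 14-3-3e knockout M2 replicate 1 (0.62, 0.066), and with only the 2 groups fitted (0.87, 0.11). The stromal marker sum of 14-3-3e knockout M1 lay above every WT M1 library, that of M2 overlapped WT M2, and its part in the C3 difference was not tested.

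C5ar1 fell in 14-3-3e knockout M2, where the libraries were at 964, 944 and 287 against 2276 to 2556 in WT M2. Each lay below the lowest of WT, and replicate 3 was lower than the other 2. The difference was -1.92 ± 0.34 (limma adjusted p = 0.0046), or 3.77-fold, and it did not pass when only these groups were fitted (-1.92 ± 0.54, 0.10). In M1 the libraries were at 4462, 4173 and 2964, all below WT M1, with a difference of -0.48 ± 0.34 that did not pass. The difference of the 2 effects was 1.43 ± 0.48 (limma adjusted p = 0.29). None of the 9 genes passed in that test of limma, where 0.286% of all genes were called, and 1 of 9 had an unadjusted p under 0.05. Both precision-weight fits also called none. C5ar2, which encodes the second C5a receptor, was at 40.6, 35.4 and 5.09 in the same M2 libraries against 105, 81.0 and 89.7 in WT M2, and did not pass (-2.14 ± 0.64, adjusted p = 0.061).

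C1q was not called against WT in either state, with differences in M1 of -0.47 for C1qa, -0.54 for C1qb and -0.44 for C1qc. The C1qb libraries of 14-3-3e knockout M1, at 30663, 27775 and 22921, all lay below WT M1, and those of the other chains overlapped it. Without WT M1 replicate 2, C1qa (-0.65, limma adjusted p = 0.027) and C1qc (-0.58, 0.023) passed. In M2 the differences were -0.01, -0.10 and -0.11, and under scaling by library totals 0.12, 0.03 and 0.02. C2, Cfb, Cfp and C3ar1 did not pass in either state, with differences from -0.24 to 0.44. Cfb passed in M1 with precision weights and scaling by library totals together (0.52 ± 0.17, limma adjusted p = 0.047).

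**Figure D4:**
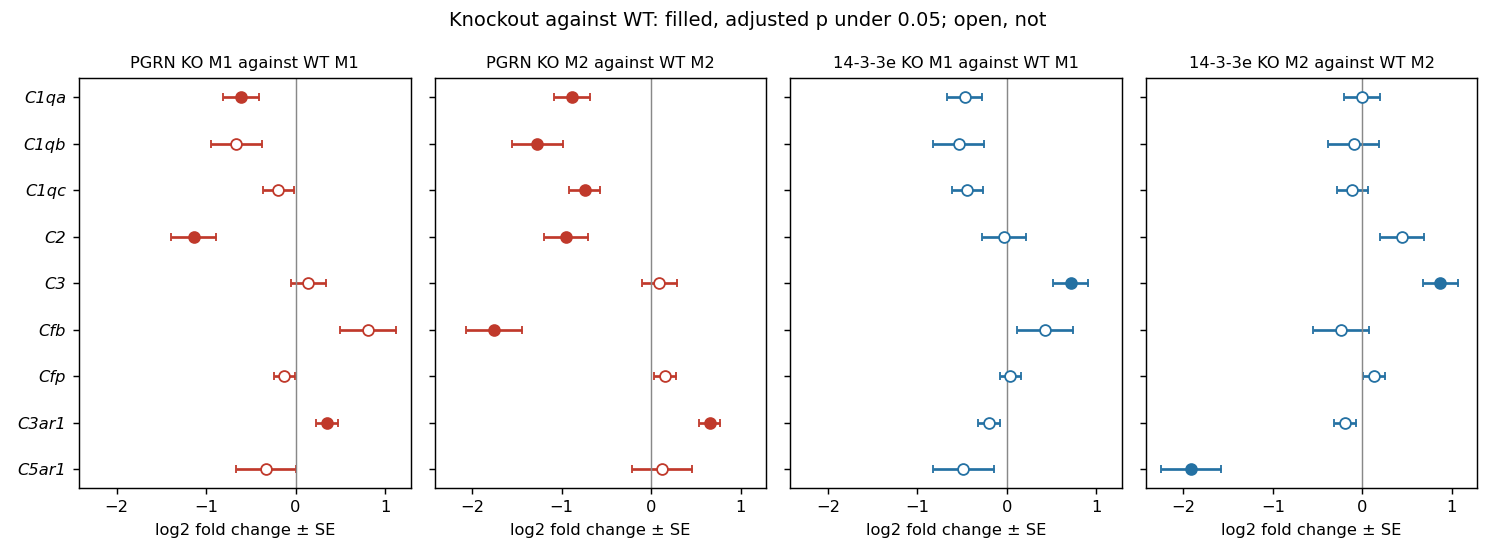
Log2 fold change ± SE against WT of the 9 genes for each knockout and state, filled where adjusted p was under 0.05. PGRN knockout M2 holds the most filled points, 6 of 9, and C5ar1 in 14-3-3e knockout M2 lies lowest at -1.92.

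The promoters of C3 and C5ar1 are shown because these genes changed in the 14-3-3e knockout. They are the 250 bases before the RefSeq start on the minus strand, chr17:57228137-57228386 for C3 and chr7:16259339-16259588 for C5ar1, with a CEBP match in capitals.
C3 promoter: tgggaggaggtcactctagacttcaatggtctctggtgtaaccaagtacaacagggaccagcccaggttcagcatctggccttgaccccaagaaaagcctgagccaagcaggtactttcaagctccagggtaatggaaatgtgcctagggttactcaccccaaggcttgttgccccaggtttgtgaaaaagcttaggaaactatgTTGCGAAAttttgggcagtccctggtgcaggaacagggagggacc
C5ar1 promoter: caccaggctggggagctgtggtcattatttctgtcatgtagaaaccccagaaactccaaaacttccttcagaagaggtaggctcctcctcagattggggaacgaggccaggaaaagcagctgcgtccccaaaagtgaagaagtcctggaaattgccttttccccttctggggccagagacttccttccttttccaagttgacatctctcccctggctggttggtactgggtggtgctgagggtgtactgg
C3 held 1 match of the 8 motifs, the CEBP letters 45 to 38 bases before the start, which 10.8% of all promoters hold. C5ar1 held none, which says only that these letters are not in this window. The RefSeq start of C5ar1 lies 202 bases inside the gene as GENCODE annotates it. Most of its printed bases thus fall within the annotated gene. C3ar1 held an AP-1 match 22 to 16 bases and a kappaB-type match 14 to 5 bases before its start (7.81% and 5.56% of all promoters), and Cfp held PU.1 cores only after its start.

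Set directly against each other, the knockouts differed in 8 of 9 genes in M2, where 18.2% of all genes were called (8.29% higher, 9.92% lower in 14-3-3e knockout). C1qa, C1qb, C1qc, C2, C3 and Cfb were higher in 14-3-3e knockout M2, by 0.88, 1.17, 0.63, 1.39, 0.78 and 1.51, and C3ar1 and C5ar1 were lower, by -0.84 and -2.04. Cfp differed by -0.03 ± 0.12. In M1, 2 were higher (C2 by 1.11, C3 by 0.57) and 1 lower (C3ar1 by -0.54), with 25.0% of all genes called (12.5% higher, 12.5% lower). Scaling by totals raised the median gene by 0.17 in M1 and 0.18 in M2 and took the share of calls that were higher from 50.1% to 73.2% and from 45.5% to 70.3%. With only the groups compared, C1qb and C1qc no longer passed in M2 (adjusted p = 0.073 and 0.053). C1qc also failed there without PGRN knockout M2 replicate 1 (0.094) or 14-3-3e knockout M2 replicate 1 (0.064) or 2 (0.0502), and C2 failed in both states with Gm20547 added (0.079 in M1, 0.11 in M2). The C3 call in M1 was lost without any 1 of 5 of the 6 libraries, at adjusted p of 0.072 to 0.17, the exception being PGRN knockout M1 replicate 3, and without the filter on low values (0.0503). Gained calls in M1 were Cfb with only the groups compared (-0.38, adjusted p = 0.011) and Cfp under scaling by library totals (0.34, 0.035).

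Per kilobase of exon, C1qb had the highest mean level of the 9 genes in each of the 6 groups, 10849 to 36143. C1qa had group means of 5671 to 25602 and C1qc of 6006 to 15081, and their order was not the same in every group, since C1qc exceeded C1qa in PGRN knockout M2. Cfb exceeded C1qc in PGRN knockout M1 (14746 against 13165) and in 14-3-3e knockout M1 (11344 against 11098). Cfp had 2730.2 to 8129, C3ar1 1727 to 4459, C3 179.5 to 3977, C5ar1 285 to 2085 and C2 23.9 to 553. Neighbouring groups overlapped for many genes: for C3ar1 the PGRN knockout M1 group stood alone at the top, and for C5ar1 the 14-3-3e knockout M2 group stood alone at the bottom. For C1qa, C1qb, C1qc, C2 and Cfb, PGRN knockout M2 was below all other groups. The group above all others was 14-3-3e knockout M1 for C3, PGRN knockout M1 for Cfb and WT M1 for C5ar1. The share of all genes with groups that lie apart in this way is not given here. These orders therefore describe single genes and are not read as a trait of the 9.

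By Pearson correlation of log2 values over the 18 libraries, among 10384 genes, the gene most like C1qa was Hlx (0.97), the one most like C1qc was Ccl8 (0.92) and the one most like C1qb was Pdlim2 (0.91). C2 was most like C1ra (0.99), C3 like Iigp1 (0.99), Cfb like Isg20 (0.995), Cfp like Pou2f2 (0.99), C3ar1 like Cacfd1 (0.97) and C5ar1 like Nucb1 (0.89). These libraries share the division into M1 and M2, which such correlations carry.

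The other complement genes were taken as a list of 44, of which 37 were tested. Between WT M1 and WT M2, 9 were higher and 4 lower, where 18.9% and 20.0% of all genes were. Cd55, a membrane regulator that speeds convertase decay, rose by 5.05 ± 0.26, C4b by 3.27 ± 0.28, C1ra, the protease that C1q activates, by 1.93 ± 0.14, and Serping1, the inhibitor of C1r and C1s, by 1.60 ± 0.17. C4b and its near copy C4a can share reads, so that value is uncertain. Itgax, a chain of complement receptor 4, fell by 4.36 ± 0.15, C1qbp by 1.42 ± 0.09, Lrp1 by 0.55 ± 0.17 and Vsig4, a macrophage receptor for C3 fragments, by 1.97 ± 0.71. Of the 7 terminal components, 3 were tested and none passed. C7, C8a, C8b and C9 were below the filter, with no library of C8a above 0.

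In PGRN knockout cells, 5 of the 37 were higher and 8 lower in M1, and 6 higher and 6 lower in M2. The shares over all genes were 14.2% and 11.1% in M1 and 11.1% and 8.30% in M2. Itgax, its partner chain Itgb2 and the surface lectin-like receptor Cd93 rose by 1.75, 1.0 and 0.78 in M1 and by 1.18, 1.13 and 0.89 in M2. Serping1 fell by 1.17 ± 0.17 in M1 and by 1.07 ± 0.17 in M2, Colec12 by 0.81 and Calr by 0.45 in M1, and C1ra by 0.59 and C1qbp by 0.38 in M2. C1ra was not particular to M2: its PGRN knockout M1 libraries, at 2537, 3514 and 2447, lay below those of WT M1, at 4027, 4613 and 4553. Of the 4 classical protease genes listed, 2 were lower in each state. Of the stromal markers, 3 were lower in M1 and 5 in M2, and their part was not tested.

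In 14-3-3e knockout cells, 4 of the 37 were higher and none lower in M1, and 2 higher and none lower in M2, where 21.3% and 6.69% of all genes were called in either direction. Cd93 rose by 0.93 in M1 and 0.60 in M2, and Cd59a, which blocks the membrane attack complex, by 0.81 and 0.95. Itgax rose by 1.10 ± 0.15 in M1 and differed by -0.03 ± 0.15 in M2, and the difference of these effects passed (1.13 ± 0.21, limma adjusted p = 0.031).

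**Figure D5:**
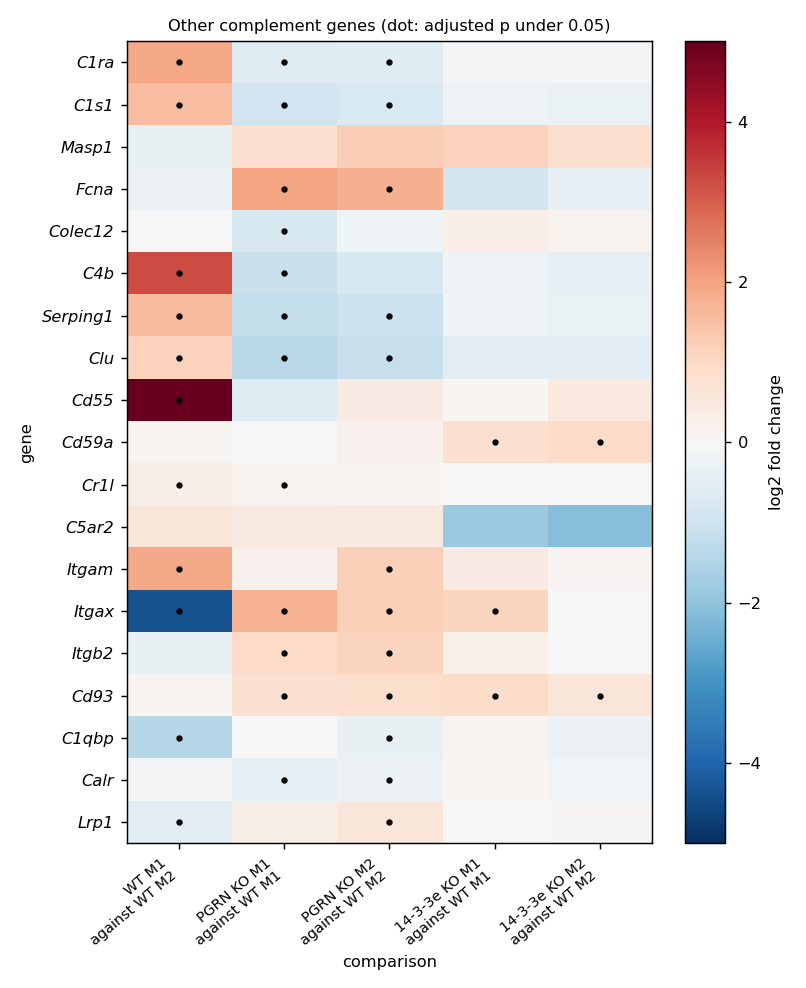
Log2 fold change of 19 other complement genes in 5 comparisons, red for higher and blue for lower in the first group named, with a dot where adjusted p was under 0.05. Cd55 at 5.05 in WT M1 against WT M2 lies just past the red end of the colour scale, and Itgax at -4.36 lies within it.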

How the data were processed

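RNA sequencing was done on 18 libraries. Per the submitters' processing notes, STAR, RSEM 1.3.1 and DESeq2 made the values, with build GRCh38 named; the gene IDs are mouse IDs, so positions come from GENCODE M21 on GRCm38 (42425 of 43309 IDs matched). The authors deposited log2 of a normalized count plus 1. In every library 100% of values were whole multiples of 1 step within 0.1 read, which gave reads and depth.

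The filter asked that 3 libraries or more reach a normalized count of 1. The genes it left entered limma 3.58.1 (R 4.3.3) with a trended, robust variance and a pseudocount of 1, which understates changes of low genes, in 1 fit of 6 groups without a replicate block, for 11 comparisons. The fit was tested on simulated data. Same-numbered M1 and M2 libraries deviated together for all 3 numbers only within the 14-3-3e knockout (correlations of deviations 0.51, 0.39 and 0.43). For numbers 1, 2 and 3 the correlations were 0.19, 0.39 and 0.04 in PGRN knockout and 0.42, -0.12 and -0.41 in WT. Whether the PGRN knockout libraries pair is not settled by these values, and no block was fitted within that genotype alone. No replicate libraries were identical. Members, lists and motifs were chosen with earlier results of these data known. Named genes are the 9 members, up to 4 or 3 passing companions a direction by smallest adjusted p, and the most correlated genes; C5ar2 and Gm20547 were chosen after their values were seen. A single gene of the companion list is not reported here and is left out of its counts. Tables and figures used Python 3.11.15, numpy 2.4.6, pandas 2.3.3 and matplotlib 3.10.9.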

Additional observations from a re-analysis of the deposited data

Results flagged for a closer look

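Cfb is listed for a closer look because its PGRN knockout effect differed between the states by a test of the difference itself, 2.56 ± 0.44 on the log2 scale (limma adjusted p = 0.014). In M1 the effect was 0.81 and in M2 -1.75. The overlapping gene Gm20547 took 42.4% of the summed reads in 1 WT M1 library and 66.0%, 48.1% and 0% in the PGRN knockout M2 libraries, and with its reads added to Cfb the difference was 1.78 (adjusted p = 0.022). With only the 4 groups in the fit the adjusted p was 0.071.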

How the results depend on the processing

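Of 99 differences of the 9 genes, 47 were called. The 1899 values under other settings held 45 lost calls, 15 gained calls and 0 changes of direction among called differences. Of the 47 calls, 31 stood in every alternative run for them, 16 were lost in at least 1, and 7 in a fit that left out 1 library.

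The number of genes called moved by more than 1.5 times as follows. For PGRN knockout M1 against WT M1 it was 3, and 1 with only the groups compared, with a range of 1 to 4 when 1 library was left out. For 14-3-3e knockout M1 against WT M1 it was 1, then 3 without the 2 libraries with over 1% of ribosomal reads and 2 with precision weights and scaling by totals, with a range of 0 to 3. For 14-3-3e knockout M2 against WT M2 it was 2, then 0 with only the groups compared and 1 without those 2 libraries, with a range of 1 to 2. For the PGRN knockout effect between states it was 1 and then 0 with only the groups compared. The cause was not tested. Over all genes, 14-3-3e knockout M1 against WT M1 had 4541 calls and 462 with only those groups, PGRN knockout M1 against WT M1 had 5399 and 2344, and WT M1 against WT M2 had 8303 and 5370. The PGRN knockout effect between states had 267 calls and 94, and the 14-3-3e one 61 calls and from 8 to 114. Without the 2 libraries with over 1% of ribosomal reads, 14-3-3e knockout M1 against WT M1 had 6593 of 20836 genes called. With precision weights and scaling by totals it had 3272 of 21336. For 14-3-3e knockout M2 against WT M2, 1427 of 21336 genes were called. That became 1532 of 18775 with only the groups compared and 1165 of 20836 without those 2 libraries.

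Across all groups the replicate numbers pair nothing (9 of 45 same-numbered pairs correlate above 0.1, and 6 of 18 libraries lie closest to their own number), and a replicate block in the full fit changed no call of the 9 genes. Precision weights (limma voom), the sums with Gm20547 and the block within 14-3-3e knockout cells were chosen after seeing the data. The weights were first run with scaling by library totals, then again with the deposited size factors so that only the variance model differed, and both are counted here. The planned edgeR and DESeq2 alternatives were not run, although reads could be recovered from the deposited logarithms. The limma voom fits on those reads were run in their place. Depth limits the low levels of Cfb in M2, where 1 read is worth up to 1.53 normalized counts.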
